A study of Mus musculus with 4 samples.

Results

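The genes described here encode 8 subunits of the GABA-A receptor, Gabra2, Gabra3, Gabra4, Gabra5, Gabrg1, Gabrg3, Gabrd and Gabrr2, taken by symbol from the 21933 genes of the count tables. All 8 were found. They were followed in nuclei of the right cerebral cortex of adult male mice, across cell types and between 2 Control animals (CrT+/y) and 2 CrT-KO animals (CrT-/y), with 1 animal per library. CrT-KO mice carry a deletion of several exons of the X-linked gene Slc6a8, which encodes the creatine transporter. The deletion is present in every cell of the animal, both groups were C57Bl/6J littermates, and no animal was treated. Gabrr2 was chosen by its measured difference between genotypes in oligodendrocytes, so its values there are given as a description without a test.

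GABA-A receptors are chloride channels built from 5 subunits and opened by GABA, the main inhibitory transmitter of the cortex. The α subunits (Gabra genes) shape the response to GABA and to benzodiazepines, the γ subunits (Gabrg genes) help to hold receptors at synapses, and the δ subunit (Gabrd) is found in receptors outside synapses that carry tonic inhibition. The ρ subunits, of which Gabrr2 encodes one, can form receptors that are insensitive to bicuculline and were first described in the retina. Cells of the oligodendrocyte lineage and astrocytes are also known to respond to GABA.

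The 4 libraries held 8282 to 9295 nuclei and 51507483 to 65240843 unique molecular identifiers (UMIs, each standing for 1 captured RNA molecule). After removal of 1236 presumed doublets, clustering named 13611 nuclei as excitatory neurons, 7969 as inhibitory neurons, 4964 as oligodendrocytes, 660 as oligodendrocyte precursor cells (OPCs), 494 as astrocytes, 2231 as microglia and 193 as endothelial cells and pericytes. A further 4336 nuclei stayed in unnamed clusters, between 12.1% and 13.6% of each library. Slc6a8 was lower in both CrT-KO libraries than in both Control libraries in excitatory neurons (1.42 and 1.44 against 6.32 and 5.48 UMIs of the gene per 1000000 UMIs of the population in that library, CPM), inhibitory neurons (1.78 and 1.18 against 6.78 and 4.93 CPM) and oligodendrocytes (5.01 and 6.41 against 17.2 and 18.6 CPM). The inhibitory class included 2333 nuclei with markers of striatal medium spiny neurons (MSN-like), although the labelled tissue was cortex. Of the distinct nuclear barcodes, 96 occurred in 2 libraries and none in more.

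Several of the 8 genes lie close together (GRCm38, GENCODE M21). Gabrg1 (chromosome 5, 70751047 to 70842617), Gabra2 (chromosome 5, 70957597 to 71095849) and Gabra4 (chromosome 5, 71569749 to 71658308) are on the minus strand, with 115.0 kb between Gabrg1 and Gabra2 and 473.9 kb between Gabra2 and Gabra4. Gabrg3 (chromosome 7, 56716465 to 57387188) and Gabra5 (chromosome 7, 57407672 to 57510059) are also on the minus strand and 20.5 kb apart. Gabrd is on chromosome 4 (155384980 to 155398112, minus strand). Gabra3 (chromosome X, 72432681 to 72656848, minus strand) lies 1.02 Mb from Slc6a8, the deleted gene, and whether this position bears on its level was not tested. Gabra4 and Gabra5 each overlap another gene on the opposite strand. The sources used here do not state whether counting used the strand, so reads of Gabra4 and Gabra5 could not be told apart from those of the overlapping genes.

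Gabrr2 is a short gene of 32.9 kb on the plus strand of chromosome 4 (33062999 to 33095865), and no annotated gene overlaps it. Its neighbours in the count table are Ube2j1, 10635 bases upstream, and Gabrr1, 36655 bases downstream. The sequence just upstream of its start is shown because Gabrr2 carried the difference in oligodendrocytes. It covers 137 bases on the plus strand (GRCm38.p6, RefSeq promoter table) and ends where the GENCODE gene begins, 113 bases before the RefSeq start.

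Gabrr2 upstream sequence, chr4:33062862-33062998: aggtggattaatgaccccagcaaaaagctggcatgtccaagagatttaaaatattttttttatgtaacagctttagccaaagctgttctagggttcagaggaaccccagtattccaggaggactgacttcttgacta

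The GC content of this window was 40.9%, against a median of 50.4% over the same window of 32851 promoters. It held no E-box (CANNTG, which reads the same on both strands) and none of the letters ACAAAG or ACAATG on either strand. Of all promoters, 46.1% held an E-box in this window, 9.62% held ACAAAG or its reverse CTTTGT, and 6.20% held ACAATG or its reverse CATTGT. Matches of different motifs may overlap one another, and the absence of a match says only that these letters are not in the window.

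Gabra2, which encodes the α2 subunit, was about as high in astrocytes (380.2 ± 75.2 CPM, SD, n = 4 libraries) as in inhibitory neurons (379.2 ± 25.3 CPM) and excitatory neurons (350.2 ± 47.2 CPM), and the ranges of these 3 populations overlapped. It was lower in every library of the other populations, down to 89.1 ± 10.6 CPM in oligodendrocytes. Among neurons it was highest in MSN-like nuclei (517.8 ± 30.6 CPM) and in upper-layer-like excitatory neurons (495.0 ± 64.4 CPM), and low in PV-like interneurons and layer 6b-like neurons (70.9 to 89.0 CPM and 57.8 to 87.8 CPM). The inhibitory class value includes the MSN-like nuclei. SST-like (244.5 CPM), VIP-like (216.6 CPM), LAMP5-like (144.8 CPM) and PV-like interneurons (79.2 CPM) were lower in every library than the lowest astrocyte library (295.9 CPM). Cell types were clustered without any GABA-A subunit gene among the variable genes, but the clusters come from these same nuclei, so all levels across cell types are descriptions.

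Gabra3, the α3 subunit gene, reached 98.9 ± 10.5 CPM in excitatory neurons, 92.2 ± 6.2 CPM in inhibitory neurons and 91.2 ± 14.6 CPM in OPCs, with overlapping ranges. The 4 other populations stayed at or below 28.3 CPM on average. Within neurons Gabra3 was highest in layer 6 IT-like (140.8 ± 15.3 CPM) and SST-like nuclei (139.3 ± 9.9 CPM) and low in MSN-like nuclei (30.8 to 41.8 CPM).

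Gabra4, which encodes the α4 subunit of many extrasynaptic receptors, was higher in inhibitory neurons (174.4 to 207.0 CPM) than in excitatory neurons (153.5 to 173.7 CPM). The MSN-like nuclei led, at 359.7 ± 21.8 CPM, ahead of LAMP5-like interneurons at 248.6 ± 28.8 CPM. SST-like (93.1 ± 16.3 CPM) and VIP-like interneurons (77.1 ± 1.6 CPM) were lower than upper-layer-like excitatory neurons (210.0 ± 12.2 CPM). The order of the classes therefore did not hold for every subclass. Gabra5, the α5 subunit gene, was highest in layer 6b-like neurons (221.1 ± 12.7 CPM), followed by LAMP5-like interneurons (137.8 ± 17.2 CPM), and neither range met that of the next group. Layer 5 ET-like (95.9 ± 19.7 CPM) and layer 5/6 NP-like neurons (94.3 ± 17.1 CPM) came next and overlapped.

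Gabrg1, the γ1 subunit gene, was highest in astrocytes. It stood at 162.1 ± 50.6 CPM in astrocytes, 52.0 ± 9.7 CPM in OPCs, 31.9 ± 4.0 CPM in inhibitory neurons and 5.3 ± 0.5 CPM in excitatory neurons, and the ranges of the first 3 did not overlap. Inhibitory neurons were not uniform: an unnamed sub-cluster of 750 nuclei, which has Prlr and Tshz2 among its leading genes, held 127.2 to 142.8 CPM in the 4 libraries, whereas PV-like nuclei held 4.4 to 6.9 CPM. An unnamed cluster led by Nos1 and Tacr1 (cluster 33, 117 nuclei) held 115.9 to 223.1 CPM.

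Gabrg3, the γ3 subunit gene, had the most UMIs of the 8 genes in 6 of the 7 populations, and in astrocytes Gabra2 had more. Its level was 2416 ± 45.8 CPM in inhibitory neurons and 898.6 ± 59.5 CPM in excitatory neurons. Subclasses ranged from 180.3 CPM in layer 4/5 Rorb-like neurons to 3602 ± 89.2 CPM in PV-like and 4103 ± 515.6 CPM in LAMP5-like interneurons. The count covers the whole gene body and Gabrg3 spans 670.7 kb, and the part of length in its lead over the other genes was not tested. Per 100 kb of gene body, Gabrg3 stood at 360.2 CPM in inhibitory neurons, Gabrd at 286.7, Gabra2 at 274.3 and Gabra4 at 220.1. In excitatory neurons the order per 100 kb was Gabra2 (253.3 CPM), Gabra4 (182.4), Gabrd (144.0) and Gabrg3 (134.0).

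Gabrd, the δ subunit gene, is the shortest of the 8 at 13.1 kb. It was detected mainly in neurons, at 37.6 ± 5.0 CPM in inhibitory and 18.9 ± 0.9 CPM in excitatory neurons. PV-like (69.0 ± 14.6 CPM) and MSN-like nuclei (64.8 ± 7.7 CPM) were highest and overlapped, and VIP-like interneurons were lowest among interneurons, at 0 to 5.6 CPM.

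Most Gabrr2 UMIs were in oligodendrocytes. Of 653 Gabrr2 UMIs in the named populations, 546 (83.6%) were in oligodendrocytes, 54 in excitatory neurons, 36 in inhibitory neurons, 7 in OPCs, 7 in microglia and 3 in astrocytes. Its mean level over the 4 libraries was 79.5 CPM in oligodendrocytes and 3.8 CPM in OPCs, the latter from the 7 UMIs above, and 0.47 CPM in excitatory neurons. Endothelial cells and pericytes held 0 UMIs, which allows up to 10.5 CPM at 3 counts over the group. Per 100 kb of gene body, Gabrr2 was the highest of the 8 genes in oligodendrocytes (241.8 CPM), ahead of Gabra2 (64.4 CPM). The other ρ genes, Gabrr1 and Gabrr3, had 0 UMIs in oligodendrocytes, which allows up to 0.433 CPM each.

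**Figure D1:**
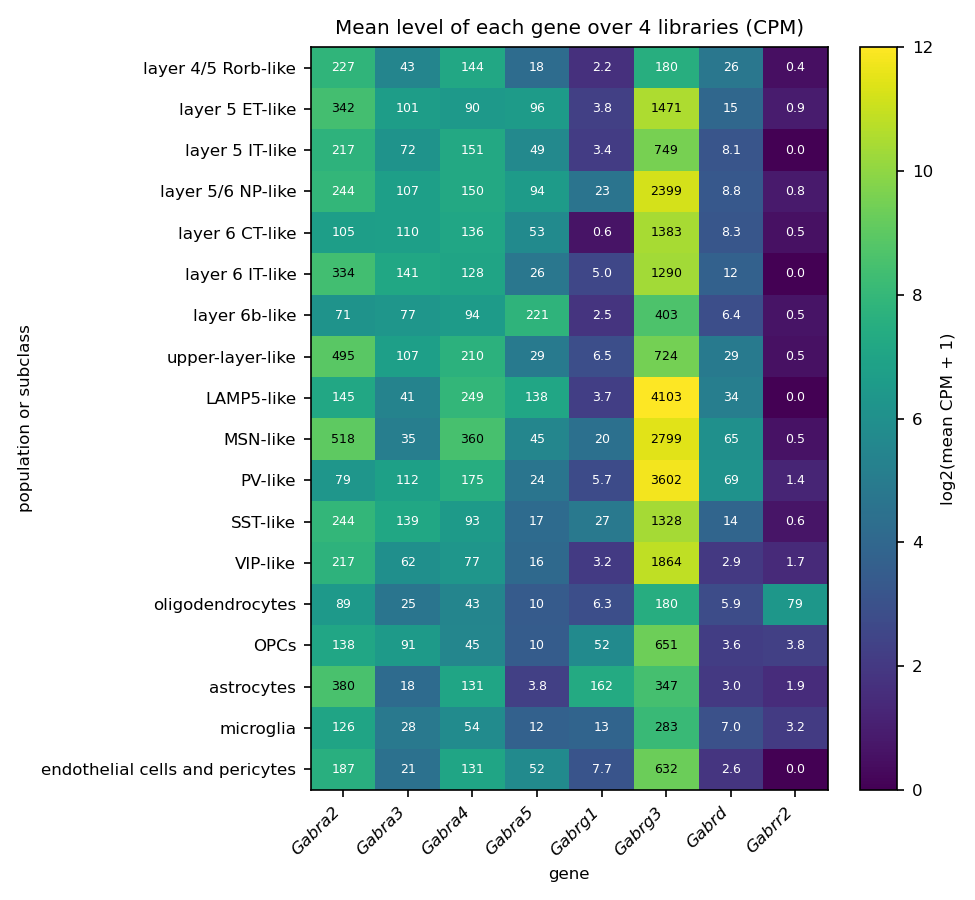
Mean CPM over the 4 libraries of each gene (columns) in 13 neuronal subclasses and 5 other populations (rows). Colour is log2(mean CPM + 1) and the number in each cell is the mean CPM. Gabrr2 stands at 79 CPM in oligodendrocytes and at or below 3.8 CPM in the other rows, and Gabrg1 peaks in astrocytes.

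The share of nuclei with at least 1 UMI depends on depth, so each nucleus was also thinned to 500 UMIs, and no nucleus of the named populations was shallower. After thinning, a Gabrg3 UMI was seen in 56.3% to 60.5% of inhibitory nuclei per library and 28.3% to 30.1% of excitatory nuclei. Unthinned shares were at least 87.0% in inhibitory and 73.8% to 79.9% in excitatory neurons, and 16.8% to 24.5% in oligodendrocytes against 16.9% to 27.5% in microglia. Free RNA can give UMIs in nuclei that do not express a gene. In microglia, taken as a background for neuronal genes, thinned shares were 11.1% to 15.1% for Gabrg3 and 5.13% to 7.83% for Gabra2, so the oligodendrocyte shares of Gabrg3 (6.82% to 11.5%) and Gabra2 (3.25% to 5.52%) overlapped or lay below this background. The same held for Gabra3, Gabra4, Gabra5, Gabrg1 and Gabrd in oligodendrocytes. By these shares their UMIs there could not be told apart from free RNA, and their source was not tested. Median depths were 1209 to 1406 UMIs per nucleus in oligodendrocytes and 880 to 1032 in microglia. By contrast, Gabrr2 was seen in 0.17% to 0.51% of microglia and 4.95% to 12.3% of oligodendrocytes without thinning.

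In oligodendrocytes, the myelinating glia of the cortex, Gabrr2 was higher in both CrT-KO animals. Gabrr2 had 64 UMIs in 1091 nuclei of Control replicate 1, 119 in 1448 of Control replicate 2, 166 in 1077 of CrT-KO replicate 1 and 197 in 1348 of CrT-KO replicate 2. These counts are 42.3 and 56.7 CPM in the Control libraries against 104.0 and 114.8 CPM in the CrT-KO libraries. The groups did not overlap, as for 36.4% of all tested genes in oligodendrocytes, with 20.5% higher in CrT-KO in that way. The lower CrT-KO value of Gabrr2 was 1.83 times the higher Control value.

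The means were 49.5 ± 10.2 CPM in Control and 109.4 ± 7.65 CPM in CrT-KO (SD, n = 2 animals each), 2.21-fold higher. The edgeR fit gave a log2 fold change of 1.10 with a standard error of 0.17. No p-value is given for it, since Gabrr2 was chosen for this difference. Of all 8944 genes tested in oligodendrocytes, 0.391% passed an adjusted p of 0.1 by edgeR, and nothing is read from this share for Gabrr2. Because groups hold 2 animals, all p-values below rest on 2 animals per genotype. The fits also borrow from the spread of the other genes, so a p-value does not measure the spread of 1 gene alone. The test between neuron classes uses differences within libraries.

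The share of nuclei with the transcript was also higher. A Gabrr2 UMI was present in 4.95% of Control replicate 1 oligodendrocytes (95% exact binomial interval 3.74% to 6.41%), 7.32% of Control replicate 2 (6.03% to 8.79%), 12.3% of CrT-KO replicate 1 (10.4% to 14.5%) and 12.2% of CrT-KO replicate 2 (10.5% to 14.0%). These intervals cover counting error only. After thinning to 500 UMIs the shares were 1.56% and 3.11% in Control and 5.11% and 5.34% in CrT-KO. More nuclei with the transcript and more transcript per nucleus cannot be told apart at this depth.

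Both oligodendrocyte clusters were then read separately. Cluster 0, led by Il33 and Opalin, held 4121 of the 4964 nuclei and showed 51.4 and 67.7 CPM in Control against 125.0 and 137.5 CPM in CrT-KO. Cluster 13, led by Enpp6, Anln and Apod, held 843 nuclei and showed 13.6 and 25.6 CPM in Control, with both CrT-KO values lying between them. Cluster 13 rests on 5, 14, 5 and 7 UMIs of Gabrr2, was too low for the fit, and the difference between the clusters was not tested. Cluster 13 made up 18.0% and 20.1% of oligodendrocytes in the Control libraries and 14.9% and 14.5% in the CrT-KO libraries. The mix of clusters thus differed between these libraries, and whether it changes with genotype was not tested. The difference within cluster 0 was 2.20-fold, and the part of the mix in the difference over all oligodendrocytes was not tested.

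**Figure D2:**
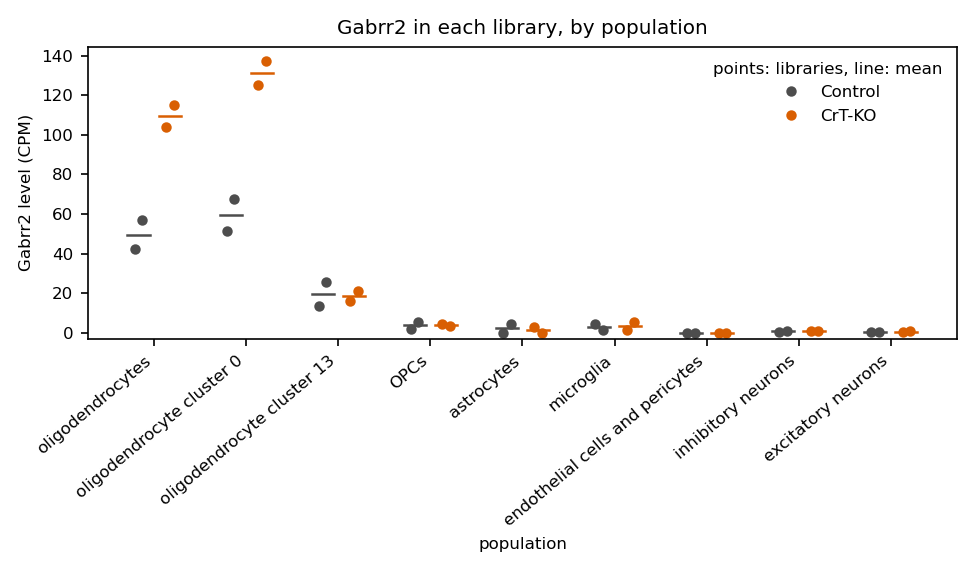
Gabrr2 level (CPM) in each library, by population and by oligodendrocyte cluster. Points are libraries (grey Control, orange CrT-KO) and lines are group means of 2 libraries. Both CrT-KO libraries lie above both Control libraries in oligodendrocytes and in cluster 0, and the groups overlap in cluster 13.

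Measures that could move with the Gabrr2 difference are given beside it. Ube2j1, the gene upstream, stood at 38.9 and 45.3 CPM in Control and 42.6 and 37.3 CPM in CrT-KO oligodendrocytes, and Gabrr1 downstream had no UMI. The 16 excitatory markers summed to 680 and 691 CPM in Control and 680 and 852 CPM in CrT-KO oligodendrocytes, and all 16 had UMIs in every library. The inhibitory markers, with UMIs in 12 to 15 of 16 genes, summed to 3313 and 3424 CPM in Control and 2934 and 3002 CPM in CrT-KO, without overlap. The same list summed to 328 to 363 CPM in excitatory neurons, and 2.94% of oligodendrocyte nuclei had a Gad1 or Gad2 UMI. Which genes carried this sum in oligodendrocytes was not examined. The 19 oligodendrocyte markers summed to 21326 and 23015 CPM in Control and 20004 and 20094 CPM in CrT-KO, also without overlap. The astrocyte markers, with UMIs in 13 to 17 of 18 genes, summed to 589 and 636 CPM in Control and 738 and 688 CPM in CrT-KO, without overlap. The OPC markers, with UMIs in 13 to 14 of 15 genes, summed to 367 and 365 CPM in Control and 394 and 356 CPM in CrT-KO, and overlapped. The part of these in the Gabrr2 difference was not tested.

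None of the other members passed an adjusted p of 0.1 in oligodendrocytes. Gabra2 held 95.7 and 93.4 CPM in Control and 73.3 and 93.9 CPM in CrT-KO, with overlap (log2 fold change -0.19 ± 0.15, SE, adjusted p = 0.85). Gabra3, Gabra4 and Gabra5 did not overlap between groups, with CrT-KO against Control levels of 26.9 and 26.2 against 23.8 and 21.4 CPM, 47.6 and 46.6 against 34.99 and 41.9 CPM, and 10.7 and 12.8 against 6.6 and 10.0 CPM. Their log2 fold changes were 0.22 ± 0.24, 0.26 ± 0.19 and 0.44 ± 0.37, with adjusted p of 0.905, 0.836 and 0.870 by edgeR. With Gabrg1, these made 4 of the 7 genes other than Gabrr2 whose groups did not overlap, where 36.4% of all tested genes did not overlap and 20.5% were higher in CrT-KO in that way. The UMIs of these 4 genes in oligodendrocytes could not be told apart from free RNA, as above.

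In excitatory neurons, the glutamatergic projection neurons of the cortex, no member passed an adjusted p of 0.1, a threshold that 0.11% of the 13657 tested genes passed. Unadjusted p-values were under 0.05 for 2 of the 8 members and for 1173 of all genes. DESeq2 called 0 members and 68 of all genes. The groups of 5 members did not overlap on the CPM scale, 4 lower and 1 higher in CrT-KO, while 40.5% of all tested genes did not overlap. More genes were lower (29.0%) than higher (11.4%) on this scale. After TMM scaling 38.5% did not overlap, 20.3% lower and 18.3% higher, and 3 members were lower and 3 higher.

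Gabra2 had the lowest p of the members in excitatory neurons. Its levels were 393.7 and 378.7 CPM in Control and 287.9 and 340.4 CPM in CrT-KO, with no overlap on either scale (log2 fold change -0.25 ± 0.09, adjusted p = 0.45). Gabra3 held 113.2 and 100.1 CPM in Control and 92.7 and 89.6 CPM in CrT-KO (log2 fold change -0.17 ± 0.07, adjusted p = 0.55). Gabrg3 stood at 967.8 and 926.9 CPM in Control and 861.9 and 838.0 CPM in CrT-KO (-0.11 ± 0.06, adjusted p = 0.69). The groups of these 3 genes did not overlap, and none of the differences passed the test.

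Gabra4 was higher in both CrT-KO libraries by a small margin, at 159.8 and 173.7 CPM against 153.5 and 159.0 CPM (log2 fold change 0.14 ± 0.08, adjusted p = 0.64). Gabra5 (65.2 and 55.6 CPM in Control, 65.7 and 62.8 CPM in CrT-KO) did not separate the groups on the CPM scale. Gabrd was at 18.7 and 20.2 CPM in Control and 18.3 and 18.4 CPM in CrT-KO, and its log2 fold change was -0.03 ± 0.10. Gabrr2 had 6, 16, 15 and 17 UMIs in excitatory neurons in library order, near the floor of detection.

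In inhibitory neurons, 7 members were tested and none passed, with 0.0624% of 12811 genes passing. Unadjusted p was under 0.05 for 1 member and 644 genes. The member with the lowest p was Gabrd, with 38.4 and 44.3 CPM in Control against 33.6 and 34.3 CPM in CrT-KO (log2 fold change -0.27 ± 0.11, adjusted p = 0.97). The groups did not overlap for Gabrd on either scale, whereas for Gabra2 (378.7 and 415.0 against 363.9 and 359.2 CPM) and Gabrg3 (2416 and 2473 against 2414 and 2361 CPM) they separated on CPM and overlapped after TMM scaling. Gabra5 was higher in both CrT-KO libraries, at 48.1 and 47.9 against 43.2 and 46.3 CPM (0.12 ± 0.10). On CPM 3 members were lower and 1 higher without overlap, where 32.4% of all genes did not overlap, 18.8% lower and 13.6% higher.

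**Figure D3:**
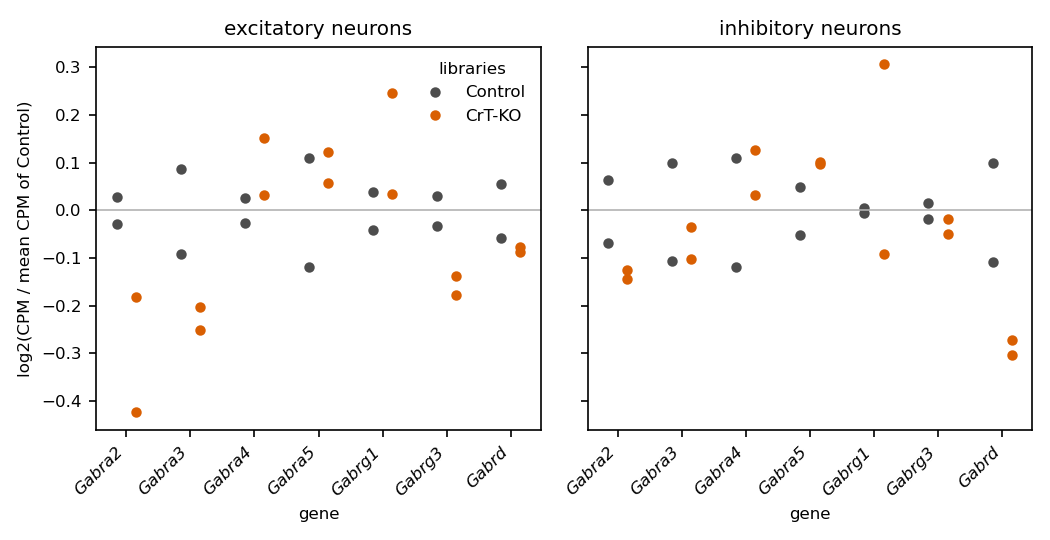
CPM of 7 genes in each library relative to the mean of the Control libraries (log2), in excitatory and inhibitory neurons. Points are libraries (grey Control, orange CrT-KO). In excitatory neurons both CrT-KO libraries lie below both Control libraries for Gabra2, Gabra3, Gabrg3 and, on this scale alone, Gabrd, in inhibitory neurons they do for Gabrd and, on this scale alone, Gabra2 and Gabrg3, and no member passed the adjusted threshold.

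The difference in genotype effect between inhibitory and excitatory neurons was tested for each gene with the library as a block. None of the 8 members passed, and 9 of 13955 genes (0.0645%) did. Unadjusted p was under 0.05 for 907 genes and, among members, for Gabrd (log2 difference, inhibitory minus excitatory, -0.24 ± 0.10, adjusted p = 0.72). For Gabra3 the difference was 0.12 ± 0.06 (adjusted p = 0.79) and for Gabra2 0.14 ± 0.09 (adjusted p = 0.84).

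Across the 13 neuronal subclasses, 80 fits of a member could be made and none passed. With the major populations, and without Gabrr2 in oligodendrocytes, there were 117 fits and none passed. Of these 117 fits, 20 had an unadjusted p under 0.05. This is a larger share than the 4.26% to 8.77% of all tested genes in the 20 populations and subclasses, and the difference was not tested. The 117 fits share libraries and nuclei and are not independent. They include Gabrg1 in layer 5 ET-like neurons, which is set aside below, and nothing is read from the share. Gabra2 was below 0 on the log2 scale in 8 of 8 excitatory subclasses, from -0.37 in layer 6 CT-like to -0.02 in layer 5 ET-like neurons, and in 3 of 5 inhibitory subclasses. In layer 6 CT-like neurons Gabra2 held 120.0 and 118.5 CPM in Control against 80.4 and 101.8 CPM in CrT-KO (-0.37 ± 0.13, adjusted p = 0.49). Gabrg3 was below 0 in 7 of 8 excitatory subclasses, with layer 4/5 Rorb-like neurons the exception at 0.25 ± 0.13. In layer 6 IT-like neurons Gabrg3 held 1451 and 1459 CPM in Control against 1063 and 1188 CPM in CrT-KO (-0.34 ± 0.11, adjusted p = 0.59). Over all 13 subclasses the groups of Gabrg3 did not overlap in 8, lower in CrT-KO in each, where 15.5% to 27.1% of all tested genes per subclass were lower in that way.

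The smallest adjusted p apart from Gabrr2 in oligodendrocytes was 0.14, for Gabrg1 in layer 5 ET-like neurons. It rests on 12 and 14 UMIs in Control and 4 and 2 UMIs in CrT-KO, so it passed the filter on low counts through the Control libraries, where it was high, and nothing is read from it. In layer 5/6 NP-like neurons Gabrg1 went the other way, with 15 and 20 UMIs in Control and 42 and 37 in CrT-KO, or 12.4 and 19.3 against 31.7 and 30.3 CPM (log2 fold change 1.02 ± 0.30, adjusted p = 0.38). PV-like interneurons, which fire fast and inhibit the soma of pyramidal cells, held Gabrd at 68.4 and 89.8 CPM in Control and 57.1 and 60.8 CPM in CrT-KO, without overlap (-0.42 ± 0.15, adjusted p = 0.72), where 34.1% of all tested genes did not overlap and 17.9% were lower in that way. In SST-like interneurons Gabra4 stood at 88.3 and 73.4 CPM in Control and 112.0 and 98.8 CPM in CrT-KO (0.41 ± 0.15, adjusted p = 0.72).

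In the other glia the counts were lower and no member passed. Astrocytes held Gabrg1 at 105.8 and 139.1 CPM in Control and 221.9 and 181.8 CPM in CrT-KO, from 14, 62, 75 and 57 UMIs. The groups did not overlap (0.63 ± 0.25, adjusted p = 0.999 by edgeR) where 32.8% of all tested genes did not, and 0.0202% passed the threshold. In OPCs Gabrg1 was at 42.8 and 47.2 CPM in Control and 65.1 and 52.8 CPM in CrT-KO (0.41 ± 0.31, adjusted p = 0.99), without overlap, as for 34.0% of all tested genes (33.9% after TMM scaling), and 0.0344% passed. In microglia Gabra4 was at 43.9 and 44.9 CPM in Control and 73.6 and 55.2 CPM in CrT-KO, from 21, 29, 45 and 30 UMIs. The groups did not overlap (0.54 ± 0.28, adjusted p = 0.88 by edgeR), as for 34.9% of all tested genes (35.0% after TMM scaling), and 0.0412% passed. Microglia were taken above as a background for neuronal genes, and whether these UMIs come from free RNA was not tested. In endothelial cells and pericytes 2 members could be tested and neither passed, nor did any of the 1718 genes (81 at an unadjusted p under 0.05). On the TMM scale 34.0% of genes did not overlap there, Gabra2 among them.

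**Figure D4:**
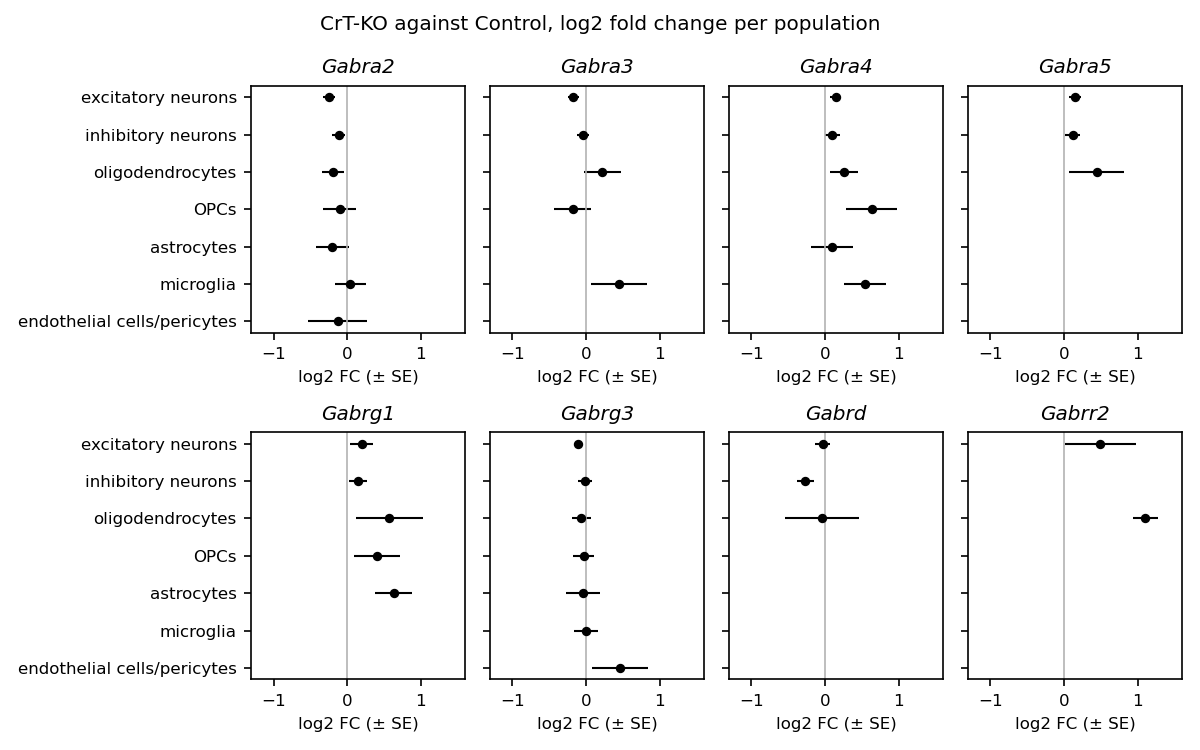
Log2 fold change of CrT-KO against Control for each gene (panels) in the 7 populations, with its standard error from the edgeR fit. Populations without a point were too low for the fit. Gabrr2 in oligodendrocytes lies at 1.10 ± 0.17 and is the value that chose the gene, and none of the remaining points passed the adjusted threshold.

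Other genes of the GABA system were read from lists, and none passed the threshold in any of the 7 populations. Of 11 other GABA-A subunit genes, 5 could be tested in excitatory neurons, inhibitory neurons and oligodendrocytes. Their median log2 fold changes were 0.03, 0.15 and 0.11, beside medians of -0.01, 0.00 and 0.00 over all tested genes. Of these genes Gabrb1, a β subunit gene, had 5937 UMIs in astrocytes, a mean of 4775 CPM.

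Among GABA-B receptor genes, Kctd16, an auxiliary subunit, had the lowest p in oligodendrocytes. It stood at 489.8 and 468.9 CPM in Control and 673.7 and 584.1 CPM in CrT-KO (0.37 ± 0.11, adjusted p = 0.23), and Kctd8 had the lowest p in excitatory (0.22 ± 0.10) and inhibitory neurons (0.19 ± 0.09). For GABA synthesis, transport and breakdown it was Gad2, the GABA-synthesising enzyme, in excitatory (0.34 ± 0.23) and inhibitory neurons (0.14 ± 0.08). Among scaffold and trafficking genes, Plcl2 had the lowest p in oligodendrocytes, at 48.2 and 59.6 CPM in Control and 87.7 and 70.0 CPM in CrT-KO (0.51 ± 0.17, adjusted p = 0.36), and in excitatory neurons (0.24 ± 0.08, adjusted p = 0.42), and Zdhhc3 in inhibitory neurons (-0.27 ± 0.14). For chloride transport it was Clcn2 in excitatory neurons (0.15 ± 0.11), Clcn3 in inhibitory neurons (-0.08 ± 0.08) and Slc4a10 in oligodendrocytes (0.25 ± 0.13).

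Genes whose levels ran most like each member were found over 18 populations and subclasses of the Control libraries, by Pearson's r of mean log2(CPM + 1) among 13107 genes. The points share libraries, and r is a description. Gabrr2 ran with Clasrp (r = 0.95), Plekhf1 (0.94, from 72 UMIs) and Tspan2 (0.93). Over the 4 libraries Gabrr2 averaged 79.5 CPM in oligodendrocytes and at most 3.8 CPM in the other named populations and subclasses. These r values therefore rest mainly on the oligodendrocyte point. Gabrg1 ran with Pla2g7, Gm4869 and Oplah (0.86, 0.86 and 0.85), where Gm4869 rests on 70 UMIs. Gabra5 ran with Camkv, D130043K22Rik and A830018L16Rik (0.86, 0.85 and 0.85), and Gabra3 with Sgsm3, Vopp1 and Slc41a2 (0.91 each). Gabrg3 ran with Sh3rf3, Dzip3 and Clip4 (0.83, 0.81 and 0.79), Gabrd with Ess2, Bnip1 and Kcnj4 (0.87, 0.87 and 0.83), Gabra4 with Jakmip1, Nars2 and Taf7l (0.78 each) and Gabra2 with Slc24a4, Diaph1 and Noct (0.80, 0.75 and 0.72).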

How the data were processed

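Per the labels, nuclei of the right cortex were sorted and sequenced by the 10x method, and the authors deposited raw UMI counts per gene and nucleus for 4 libraries (Cell Ranger 3.1.0, GRCm38; the study counted whole gene bodies and kept barcodes above a UMI limit). The deposited files give no cell types. Doublets were marked with Scrublet (scanpy 1.11.5). Nuclei were clustered by Leiden at resolution 1 (leidenalg 0.10.2) on 3000 variable genes without GABA-A genes, and clusters were named from fixed markers, by limits set after the data were seen (at least 3 markers at 10%). Counts were summed per library and population and tested with edgeR's quasi-likelihood test (TMM, filterByExpr, Benjamini-Hochberg, threshold 0.1); DESeq2 and the other settings given below were alternatives. Tests were checked on simulated counts. Depth was 51507483 to 65240843 UMIs per library. Named were the 8 members, the gene of each list with the lowest p in each of excitatory neurons, inhibitory neurons and oligodendrocytes, any list gene past the threshold, and the 3 most alike genes. Some genes that this rule names are not reported here. The study's own test over single nuclei was not used, since nuclei of 1 animal are not replicates. Members and lists were chosen with earlier results of these data known.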

Additional observations from a re-analysis of the deposited data

Results flagged for a closer look

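Gabra3 was lower in both CrT-KO libraries in excitatory neurons and higher in both in oligodendrocytes and in microglia. The mean difference, CrT-KO minus Control, was -15.5 CPM in excitatory neurons, 3.99 CPM in oligodendrocytes and 8.72 CPM in microglia. It stands out because every library moved one way in one population and the other way in another, and the difference between populations was not tested. Gabra3 UMIs in oligodendrocytes could not be told apart from free RNA, and microglia were the population taken as background. The log2 fold change in oligodendrocytes was 0.22 ± 0.24 (adjusted p = 0.905 by edgeR).

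Gabrr2 was present in an unnamed cluster that enters no comparison (cluster 31, 157 nuclei, led by Prom1 and Enpp6 with Gpr17 among its leading genes). It held 51.3 CPM on average in CrT-KO and 16.2 CPM in Control, with 11.5 and 20.99 CPM in the Control and 43.9 and 58.7 CPM in the CrT-KO libraries. These levels rest on 2, 3, 5 and 4 UMIs, and the difference was not tested.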

How the results depend on the processing

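The log2 fold change of Gabrr2 in oligodendrocytes was 1.10, and leaving out each library gave 0.93 to 1.36, the highest without Control replicate 2. It was 1.09 to 1.12 under the other alternatives, including clusters named by score alone, a setting chosen after seeing the data. With DESeq2 the number of members called in oligodendrocytes was 0 in place of 1, that 1 being Gabrr2, which this contrast chose. Nothing is read from either call for Gabrr2, and the cause of the change was not tested. No member was called in the other 6 populations under any setting run, and the count of members with a changed effect between neuron classes stayed at 0. The highest population was unchanged for 8 members in most settings, and for 7 with clusters named by score alone, without Control replicate 2 and without CrT-KO replicate 2.

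Replicate numbers are shared between the groups only as numbers: same-numbered libraries deviated together with correlations of 0.02 to 0.16. With a replicate block the Gabrr2 value was 1.12, and the number of genes called in oligodendrocytes was 151 in place of 35. For all genes, 15 were called in excitatory neurons, 138 with the block, 68 with DESeq2, 3 without the filter on low counts, 27 with clusters named by score alone and 0 to 83 leaving out a library. In inhibitory neurons 8 were called, 123 with the block, 5 with DESeq2, 41 without the filter and 28 to 70 leaving out a library. In oligodendrocytes 0 were called with DESeq2 (165 at an unadjusted p under 0.05), 90 without the filter and 35 to 90 leaving out a library. Of the GABA-B list, 1 gene was called without the filter, 1 with the block and 0 to 1 leaving out a library (Kctd16 in each case, in oligodendrocytes with the block and otherwise in astrocytes or endothelial cells, where it also passed with doublets kept), and 0 to 1 of the scaffold list leaving out a library.

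Small log2 fold changes changed sign. In excitatory neurons Gabrd was 0.011 with doublets kept and ranged from -0.11 to 0.047 leaving out a library. In inhibitory neurons, leaving out a library, Gabra3 ranged from -0.11 to 0.024, Gabra4 from -0.044 to 0.25, Gabrg1 from -0.043 to 0.30 and Gabrg3 from -0.065 to 0.036. In oligodendrocytes Gabrg3 ranged from -0.25 to 0.10 and Gabrd from -0.98 to 0.54.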
